A study of Mus musculus with 15 samples.

Results

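The genes of oxidative phosphorylation were followed in sorted intestinal epithelial cells of mice. Members were chosen by symbol: those starting with Ndufa, Ndufb, Ndufc, Ndufs, Ndufv, Uqcr, Cox4i, Cox5, Cox6, Cox7, Cox8 or Atp5, and Sdha to Sdhd, Cycs and Cyc1, without the Ndufaf assembly factors and without pseudogenes. The protein-coding genes of mitochondrial DNA (chrM) were added and kept apart. This gave 102 of the 27179 genes in the count table, 89 of them nuclear and 13 on chrM. The nuclear members comprise 38 genes of complex I, 4 of complex II, 9 of complex III, cytochrome c, 20 of complex IV and 17 of complex V, while 8 Ndufaf genes and 5 pseudogenes were left out. Ndufa4 and Ndufa4l2 were placed in complex IV.

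All mice carried Lrig1-eGFP-IRES-CreERT2, a fluorescent reporter of the stem and progenitor cell protein Lrig1, together with APCmin, a mutation of the tumor suppressor Apc that gives intestinal tumors. Cells that were Epcam+, CD45- and CD31- were sorted by eGFP, and the 4 groups are tumor Lrig1-high (libraries S04, S08 and S12), tumor Lrig1-low (S03, S07, S11 and S15), normal Lrig1-high (S02, S06, S10 and S14) and normal Lrig1-low (S01, S05, S09 and S13). Tumor cells came from colonic tumors and normal cells from colonic epithelium of the same kind of mouse, so the reference cells carry APCmin too. The labels name no animal, age or sex, so a p-value here reflects only how far libraries of a group scatter, which may be technical. Values of a group are given below in the order of library number.

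Oxidative phosphorylation takes electrons from NADH at complex I and from succinate at complex II, passes them through complex III and cytochrome c to oxygen at complex IV, and uses the proton gradient so made to drive ATP synthesis at complex V. Complexes I, III, IV and V each combine subunits encoded in the nucleus with core subunits encoded on chrM, whereas complex II is wholly nuclear. Differentiated absorptive cells of the gut are known to be rich in mitochondria.

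The 14 libraries used held 9508505 to 17296536 counts, and S15 held 357 and was left out, which leaves 3 tumor Lrig1-low libraries. The 4 libraries S07 to S10 went against their sort labels in the Lrig1 gene itself. Lrig1 reached 148, 55.7 and 72.5 CPM (a gene's counts relative to library size, with TMM scaling) in tumor Lrig1-high libraries, against 53.2, 141.7 and 43.0 CPM in tumor Lrig1-low libraries. Among normal libraries it stood at 126, 138, 36.4 and 146 CPM in Lrig1-high cells, against 51.4, 45.3, 85.5 and 54.0 CPM in Lrig1-low cells. High and low are therefore names from the labels here, and the medians of each comparison are also given without S07 to S10. That set keeps only S03 and S11 of the tumor Lrig1-low libraries used and S04 and S12 of the tumor Lrig1-high ones. S12 stood apart in its mitochondrial RNA, with 42.8% of its counts on chrM ribosomal RNA against 12.9% to 27.1% in the other 13 libraries, and it had 11995 genes with a count. Markers of epithelium summed to 3019 to 15881 CPM, markers of small-intestinal enterocytes to 1778 to 11126 CPM and those of colonocytes to 73.9 to 313 CPM. Paneth cell markers, which belong to the small intestine, summed to 72.2 to 11881 CPM, so the markers go against colonic epithelium as the only source, and the colon is given here as the labels have it. Markers of leukocytes summed to 13.8 to 315 CPM with Cd52 at 0, and those of endothelium to 0.0895 to 156 CPM with Cldn5 at 0.

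The mean sum of nuclear oxidative phosphorylation RNA was lowest in the tumor Lrig1-low group, although its library S03 lay above S08, S12 and S06 of other groups. The 89 nuclear genes summed to 8206, 7436 and 5632 CPM in tumor Lrig1-low libraries, against 12350, 9994, 8811 and 10151 CPM in normal Lrig1-low libraries. Every tumor library of that fraction lay below every normal one. In the Lrig1-high fraction the sum was 10466, 7763 and 7255 CPM in tumor libraries, against 9048, 7964, 9506 and 12243 CPM in normal libraries, and the groups overlapped. The highest value of each group held large single genes: Atp5b took 3123 CPM in S04, and Ndufa13 took 1751 CPM, Atp5g3 984.6 CPM and Uqcrh 774.6 CPM in S14. Without those 4 genes the sum averaged 6781 ± 323 CPM in tumor Lrig1-high libraries (SD, n = 3) and 7727 ± 586 CPM in normal Lrig1-high libraries (SD, n = 4). The same sum was 6141 ± 1177 CPM in tumor Lrig1-low libraries (SD, n = 3) and 9007 ± 1275 CPM in normal Lrig1-low libraries (SD, n = 4). In bulk samples, fewer cells of a type and less RNA per cell cannot be told apart.

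The 13 chrM genes followed another pattern. They summed to 13580, 16844 and 95729 CPM in tumor Lrig1-high libraries, against 16424, 19284, 18233 and 16885 CPM in normal Lrig1-high libraries. In the Lrig1-low fraction the sum was 18172, 9602 and 10670 CPM in tumor libraries, against 13240, 29542, 21114 and 20914 CPM in normal libraries. Groups overlapped in both fractions, and S12 alone stood far above every other library. The ratio of chrM to nuclear member counts was 13.2 in S12 and 1.07 to 2.96 elsewhere.

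**Figure D1:**
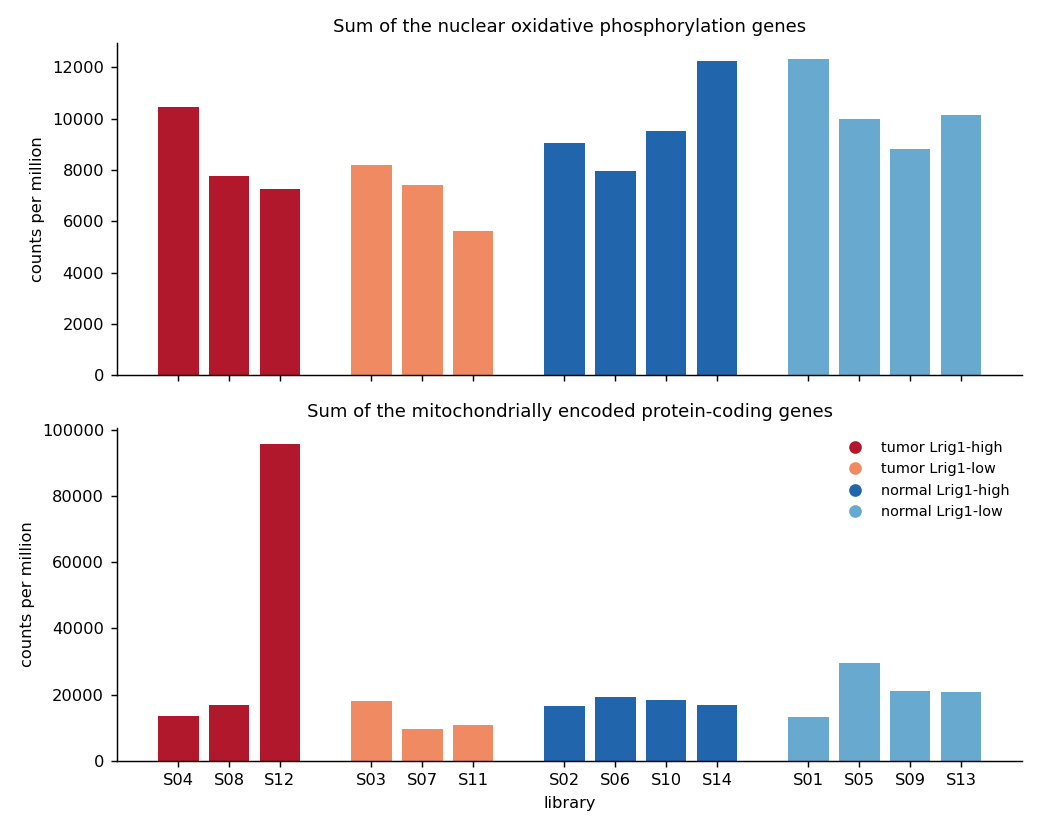
Sums of the nuclear members (top) and of the 13 chrM genes (bottom) in CPM, with a bar for each of the 14 libraries, coloured by group. The 3 tumor Lrig1-low bars at the top lie between 5632 and 8206 CPM, below the 4 normal Lrig1-low bars, and S12 reaches 95729 CPM at the bottom.

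Many nuclear members shared the same shift within a library. For 80 nuclear members with a mean of at least 5 CPM, each library was compared with the gene's median over the 14 libraries on the log2(CPM + 0.5) scale. The median of the members was -0.65 in the tumor Lrig1-low library S11, with 77 of 80 members below 0, and +0.49 in the normal Lrig1-low library S01, with none below 0. Between them, the other libraries had medians of -0.31 to +0.21. The same median over 10270 genes stayed between -0.04 and +0.02 in all 14. S12 was unlike the rest in spread: its members had an interquartile range of 1.53, against 0.15 to 0.46 in the others. This width was shared by the whole library, since over all 10270 genes the interquartile range was 1.78 in S12 and 0.34 to 0.72 in the others.

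**Figure D2:**
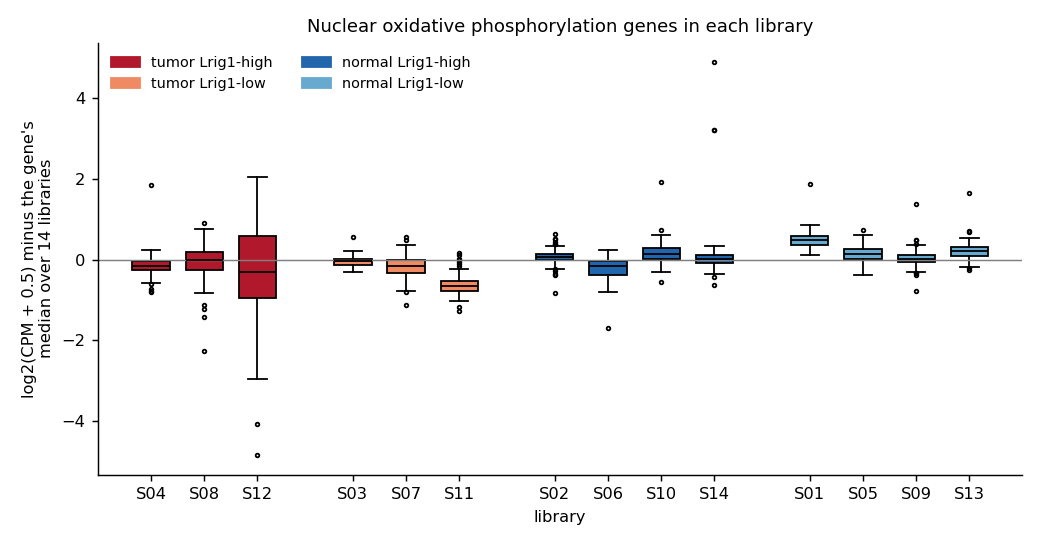
Boxes of 80 nuclear members in each library, as log2(CPM + 0.5) minus the gene's median over the 14 libraries (box: quartiles, line: median, whiskers: 1.5 interquartile ranges, dots: members beyond). S11 has the lowest median at -0.65, S01 the highest at +0.49, and S12 the widest box.

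NRF1, GABPA, YY1 and ESRRA are transcription factors known to act on nuclear genes for mitochondrial proteins. RefSeq promoters (GRCm38.p6, 250 bases before to 50 bases after the start) were found for 71 nuclear members. The NRF1 motif GCGCATGCG, searched on both strands, occurred in 9 of these 71 genes (12.7%), against 1.95% of 27025 genes. The ETS motif CCGGAAG, bound by GABPA, occurred in 17 (23.9%), against 9.93% of all genes. The YY1 motif AAGATGG occurred in 11 (15.5%), against 7.28%, and the ESRRA motif AAGGTCA in 8 (11.3%), against 5.38%. At least 1 of the motifs was present in 36 of 71 members (50.7%), against 22.3% of all genes. The 27025 genes were taken whether expressed here or not, and no share among expressed genes alone was counted. The NRF1 motif reads nearly the same on both strands, so a full GCGCATGCGC holds overlapping matches. A match is a description of these letters and no evidence of binding. The promoters of 4 subunits whose values are given below are printed 5′ to 3′ on the gene's strand, with motif matches in capitals, to show an ETS site alone (Sdhb), an NRF1 site alone (Uqcrc1, Cycs) and both (Cox6a1).
Sdhb, chr4:140961021-140961320, plus strand: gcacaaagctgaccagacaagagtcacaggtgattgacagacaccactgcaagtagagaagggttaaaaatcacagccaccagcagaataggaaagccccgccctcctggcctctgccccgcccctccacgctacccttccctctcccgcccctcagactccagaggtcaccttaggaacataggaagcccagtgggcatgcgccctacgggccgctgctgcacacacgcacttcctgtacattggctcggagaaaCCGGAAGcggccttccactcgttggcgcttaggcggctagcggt
Uqcrc1, chr9:108936398-108936697, plus strand: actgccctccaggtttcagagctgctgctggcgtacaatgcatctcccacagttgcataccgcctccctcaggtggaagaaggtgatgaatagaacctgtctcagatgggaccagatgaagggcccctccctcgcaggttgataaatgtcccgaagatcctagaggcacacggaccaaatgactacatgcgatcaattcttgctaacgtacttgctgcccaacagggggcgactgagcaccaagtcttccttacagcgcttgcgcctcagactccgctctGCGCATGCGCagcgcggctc
Cycs, chr6:50566520-50566819, minus strand: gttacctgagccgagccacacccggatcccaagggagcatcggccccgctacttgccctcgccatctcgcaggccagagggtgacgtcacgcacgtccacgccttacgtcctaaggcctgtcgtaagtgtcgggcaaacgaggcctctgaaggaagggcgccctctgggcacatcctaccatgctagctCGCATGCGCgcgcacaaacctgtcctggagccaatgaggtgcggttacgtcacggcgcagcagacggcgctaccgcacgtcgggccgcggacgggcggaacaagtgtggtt
Cox6a1, chr5:115348909-115349208, minus strand: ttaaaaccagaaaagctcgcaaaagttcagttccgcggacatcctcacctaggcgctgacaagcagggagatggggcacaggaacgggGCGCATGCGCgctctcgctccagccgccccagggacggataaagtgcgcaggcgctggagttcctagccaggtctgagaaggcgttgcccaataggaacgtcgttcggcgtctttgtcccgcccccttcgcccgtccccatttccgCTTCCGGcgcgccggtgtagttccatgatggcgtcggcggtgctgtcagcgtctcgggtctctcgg

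The first comparison asked how tumor cells differ from normal cells within the Lrig1-low fraction. Of the 95 members that passed the filter on low counts, 82 were nuclear, and 81 of these 82 had a negative log2 fold change, tumor over normal. The median fold change of the nuclear members was -0.50, against +0.02 over all 13883 genes, of which 48% were negative and 52% positive. For 37 nuclear members every tumor library lay below every normal one, and none lay above, against 8.39% of all genes below and 9.95% above. None passed an adjusted p under 0.05 in edgeR's quasi-likelihood test with Benjamini-Hochberg adjustment, where 0.0216% of all genes (3 genes) passed as lower and 0.31% as higher. At an unadjusted p under 0.05, 28 nuclear members were lower and none higher, against 5.09% of all genes lower and 8.95% higher. DESeq2 called 7 nuclear members lower, against 0.783% of the genes it was run on (genes without an adjusted p included), and limma-voom with sample weights called 12, against 2.34% of all genes. Without S07 to S10 the nuclear median was -0.63 with 81 of 82 negative, and edgeR called no nuclear member, against 0.143% of all genes lower. The tumor libraries left in that fit are S03 and S11, so S11 weighs more in it. The median was -0.37 without S11 and -0.70 without S03. Markers of other cell states moved along: 12 of 12 enterocyte markers had a negative fold change, and their sum was 1778 to 5638 CPM in tumor Lrig1-low libraries and 5374 to 9890 CPM in normal Lrig1-low libraries. Likewise 10 of 10 stem cell markers had a positive one, with sums of 1257 to 7680 CPM in tumor libraries and 586 to 2809 CPM in normal libraries. Tested colonocyte markers were mixed, with 4 of 7 negative and 3 positive. Paneth markers were positive in 6 of 6 and cycling cell markers in 9 of 10. Negative were 5 of 7 goblet, 6 of 6 enteroendocrine and 4 of 6 tuft cell markers. Endothelial markers summed to 32.5, 9.20 and 156 CPM in tumor Lrig1-low libraries, against 2.20, 0.0895, 5.08 and 0.233 CPM in normal Lrig1-low libraries, without overlap. Fibroblast markers summed to 5.98, 0.172 and 26.4 CPM in those tumor libraries, against 0.571, 0, 1.92 and 0.467 CPM in the normal ones, with Lum at 0. Both sums were highest in S11, the library with the lowest nuclear member median. Few of these markers passed the filter on low counts. Of 6 endothelial markers 2 passed, with log2 fold changes of -0.54 and +5.98, and of 6 fibroblast markers 1 passed, at +4.64. The part of these cells in the result was not tested.

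**Figure D3:**
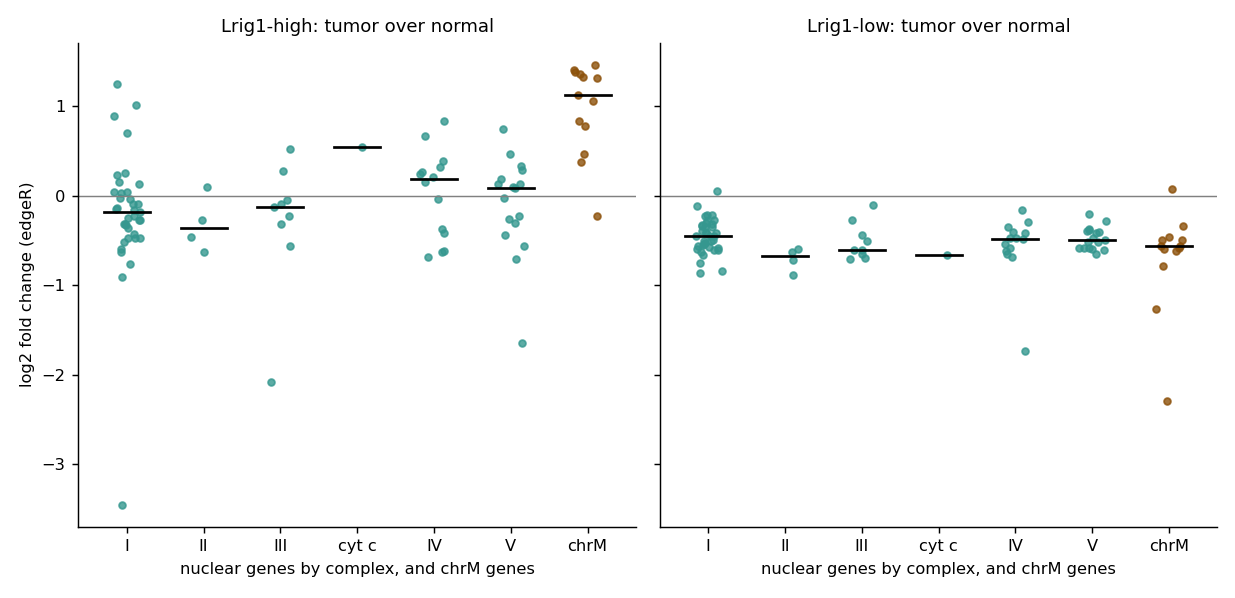
Log2 fold changes from edgeR, tumor over normal, in Lrig1-high cells (left) and Lrig1-low cells (right), for each tested nuclear member by complex and for the 13 chrM genes (points: genes, line: median). In Lrig1-low cells the complexes' medians lie between -0.67 and -0.45, and in Lrig1-high cells the chrM genes have a median of 1.13.

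Complex I, which oxidises NADH, had a median fold change of -0.45 over 37 tested nuclear subunits in Lrig1-low cells. Of these, 15 lay lower in tumor libraries without overlap, against 8.39% of all genes. Ndufs7, a core subunit that holds an iron-sulfur cluster, had 72.4, 59.5 and 44.7 CPM in tumor libraries, against 116.7, 109.98, 74.0 and 94.9 CPM in normal libraries. The highest tumor library was just under the lowest normal one, and the log2 fold change was -0.75 ± 0.21 (SE; adjusted p = 0.106). Ndufa10, an accessory subunit of the membrane arm, had 126, 97.6 and 82.1 CPM in tumor libraries, against 178, 150.4, 138 and 150.01 CPM in normal libraries. Its groups did not overlap either, with a log2 fold change of -0.60 ± 0.18 (SE; adjusted p = 0.134). Ndufb10, an accessory subunit, stood at 128, 73.1 and 64.6 CPM in tumor libraries, against 179, 173, 129 and 155 CPM in normal libraries. S03 came close to S09 there, while S07 and S11 were far lower; the log2 fold change was -0.84 ± 0.26 (SE; adjusted p = 0.143). The single nuclear member with a positive value was Ndufa7, at 0.05 ± 0.41 on the log2 scale (SE; adjusted p = 0.993).

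Complex II, succinate dehydrogenase, links the TCA cycle to the respiratory chain. Its 4 subunits all lay lower in tumor Lrig1-low libraries without overlap, against 8.39% of all genes, with a median log2 fold change of -0.67. Sdhb, the iron-sulfur subunit, had 113, 83.8 and 63.4 CPM in tumor libraries, against 202, 169, 120.1 and 149 CPM in normal libraries. This was -0.88 ± 0.23 on the log2 scale (SE), with the smallest adjusted p of any member in this comparison at 0.0893. Sdhc, a membrane anchor (gene 66052 at chr1:171129157-171150603, minus strand, mm10), had 85.97, 76.2 and 61.7 CPM in tumor libraries, against 142, 124, 102.5 and 121 CPM in normal libraries. Again the groups were apart, at -0.71 ± 0.19 (SE; adjusted p = 0.0927). Sdha, the flavoprotein that oxidises succinate, and Sdhd, the other anchor, had log2 fold changes of -0.60 and -0.63.

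Complex III passes electrons to cytochrome c, and the median over its 9 nuclear members was -0.61 on the log2 scale in Lrig1-low cells. All 9 were negative and 3 of them lay lower without overlap, against 8.39% of all genes. Uqcrfs1, the Rieske iron-sulfur protein, had 142.5, 122 and 106 CPM in tumor libraries, against 215, 202, 149 and 187 CPM in normal libraries. The difference was -0.61 ± 0.18 on the log2 scale (SE; adjusted p = 0.136). Uqcrc2, a core protein of the complex, had 129, 132 and 86.9 CPM in tumor libraries, against 217, 164, 158 and 167 CPM in normal libraries. Groups stayed apart, at -0.61 ± 0.21 (SE; adjusted p = 0.193). Cycs, cytochrome c itself, had 44.2, 44.4 and 28.8 CPM in tumor libraries, against 73.1, 78.7, 29.6 and 65.6 CPM in normal libraries. S09 lay among the tumor values, so the groups overlapped, and the log2 fold change was -0.66 ± 0.32 (SE; adjusted p = 0.386).

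Complex IV, cytochrome c oxidase, gave a median of -0.48 on the log2 scale over 14 tested nuclear members. All were negative and 6 of them lay lower without overlap, against 8.39% of all genes. Cox6a1, a subunit in its ubiquitous isoform, had 72.7, 72.95 and 40.7 CPM in tumor libraries, against 114, 96.2, 78.1 and 91.7 CPM in normal libraries. The groups were separate by a few CPM, at -0.61 ± 0.22 on the log2 scale (SE; adjusted p = 0.223). Cox7b had 176, 148 and 95.3 CPM in tumor libraries, against 268, 203, 180.2 and 224 CPM in normal libraries. Its log2 fold change was -0.65 ± 0.25 (SE; adjusted p = 0.255), with S03 just under S09. Complex V, the ATP synthase, had a median of -0.49 over 17 members, all negative and 9 without overlap, against the same 8.39% of all genes. Atp5c1, the central gamma stalk of the motor, had 214, 179.5 and 155 CPM in tumor libraries, against 345, 265, 252 and 287 CPM in normal libraries. No tumor value reached the normal range, at -0.65 ± 0.20 (SE; adjusted p = 0.136). Atp5pb, a peripheral stalk subunit, gave -0.58 ± 0.22 (SE; adjusted p = 0.244), also without overlap.

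**Figure D4:**
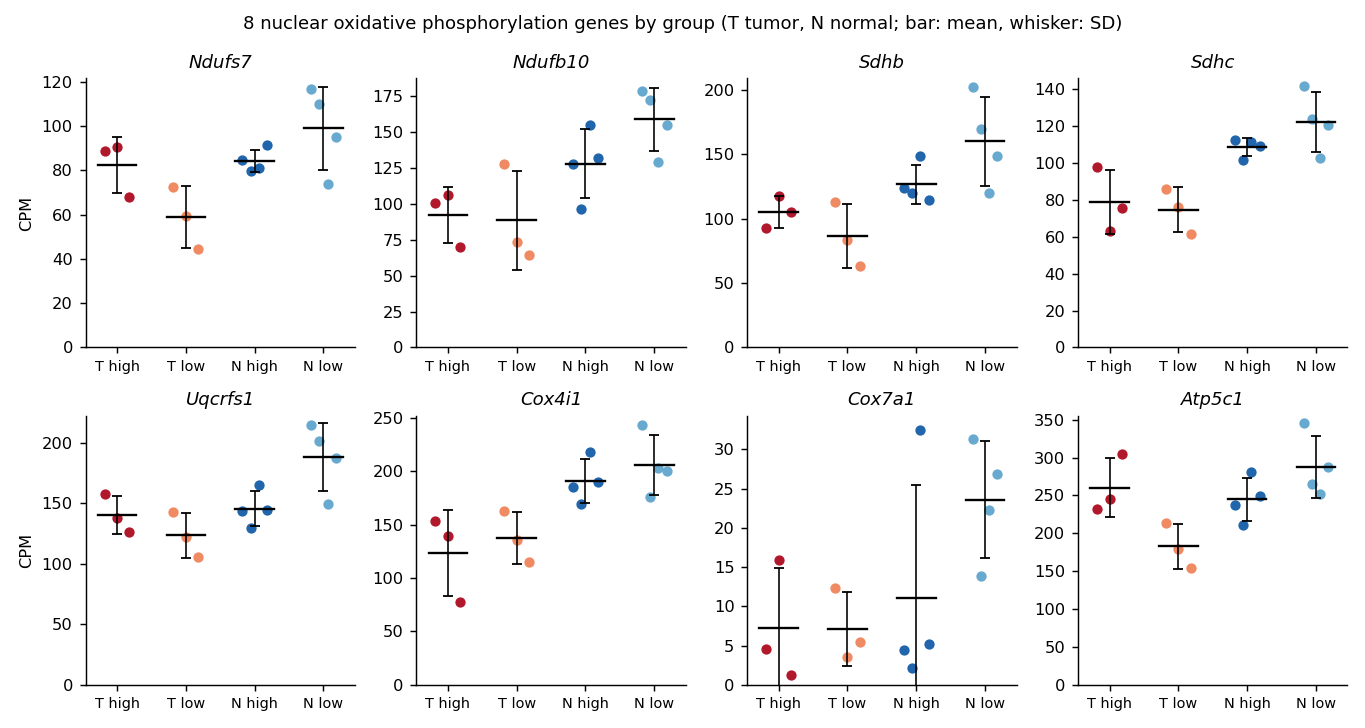
CPM of 8 nuclear members by group on linear axes from 0 (T tumor, N normal; points: libraries, bar: mean, whisker: SD, n = 3 for tumor and 4 for normal groups). The lowest group mean is that of tumor Lrig1-low for 7 of the 8 genes and that of tumor Lrig1-high for Cox4i1, and Sdhc and Cox4i1 lie below normal in both fractions.

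Within the Lrig1-high fraction, the tumor over normal differences of the nuclear members were small and mixed. The median log2 fold change was -0.13, against -0.04 over all genes, with 50 members negative and 32 positive, where 52.6% of all genes were negative. Of the nuclear members 5 lay below normal without overlap and none above, against 5.02% and 3.37% of all genes, so the share below is near the background. No gene passed the threshold in either direction (0% of all genes), and at an unadjusted p under 0.05 there were 3 nuclear members higher and 7 lower, against 7.08% and 4.15% of all genes; DESeq2 and limma-voom called no nuclear member either. Among the 5 members below normal without overlap were Sdha, Sdhc and Cox4i1, which were also separate in Lrig1-low cells. There 37 of the 82 nuclear members were separate, and the share of all genes separate in both fractions was not counted. Both comparisons use different libraries throughout, but the labels do not say whether these share animals. Without S12 the nuclear median was -0.11, and without S07 to S10 it was -0.17.

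Several of the larger folds in this fraction rested on 1 library. Ndufa13, an accessory subunit of complex I, had 41.9, 55.0 and 35.4 CPM in tumor libraries, against 49.7, 67.7, 62.6 and 1751 CPM in normal libraries, with a log2 fold change of -3.45 ± 1.11 (SE; adjusted p = 0.355). Its normal value came from S14, as did that of Uqcrh, a hinge protein of complex III, at -2.08 ± 0.70 (SE; adjusted p = 0.355). Ndufa11, another accessory subunit of complex I, had 26.95, 50.7 and 135 CPM in tumor libraries, against 24.4, 22.2, 36.9 and 36.05 CPM in normal libraries, at +1.25 ± 0.42 (SE; adjusted p = 0.355). S12 was highest there, as it was for Ndufa3 with 86.7 CPM and for Uqcrb of complex III with 205 CPM. Cox7a2l, which helps to join complexes III and IV into supercomplexes, had 35.99, 23.3 and 20.5 CPM in tumor libraries, against 51.5, 35.9, 44.9 and 38.3 CPM in normal libraries. S04 and S06 met at the same level, and the log2 fold change was -0.68 ± 0.25 (SE; adjusted p = 0.361).

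Cox4i1, the main isoform of subunit 4, had 154, 139 and 77.2 CPM in tumor Lrig1-high libraries, against 185, 169, 218 and 190.02 CPM in normal Lrig1-high libraries. In Lrig1-low cells Cox4i1 had 163, 136 and 115 CPM in tumor libraries, against 243, 176, 203 and 199.9 CPM in normal libraries. All 6 tumor libraries were below all 8 normal ones.

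Averaged over both fractions, Sdhc was the only member past the threshold. The nuclear median of this tumor over normal comparison was -0.32, against -0.02 over all genes, with 71 of 82 negative where 51.6% of all genes were. Only Sdhc was called, where 0.396% of all genes were called lower and 1.82% higher; 29 nuclear members were lower at an unadjusted p under 0.05, against 6.75% of all genes, and 4 of 82 had all 6 tumor libraries below all 8 normal ones, against 0.569% of all genes below and 0.886% above. Sdhc had 97.7, 63.2 and 75.8 CPM in tumor Lrig1-high libraries, against 112, 101.5, 111.5 and 109 CPM in normal Lrig1-high libraries, with no overlap in this fraction as in the other. Its log2 fold change was -0.59 ± 0.13 (SE), with an adjusted p of 0.0387 in edgeR's quasi-likelihood test and of 0.00127 in DESeq2. The adjusted p was 0.118 without S11, 0.0967 without S01, 0.0700 without S07 to S10 and 0.0573 with runs of library numbers as a block, and the call was lost in 10 of the 14 fits that left out 1 library, with the log2 fold change between -0.68 and -0.52 in all of them. The nuclear median was -0.36 without S07 to S10. Among the members just outside the threshold were Cox4i1 (-0.60 ± 0.17, adjusted p = 0.0763), Sdhb (-0.58 ± 0.16, adjusted p = 0.0765) and Ndufb10 (-0.66 ± 0.18, adjusted p = 0.0779). Uqcrc1 and Cyc1 of complex III had log2 fold changes of -0.51 and -0.63, Cox5b of complex IV -0.42, and Atp5a1 and Atp5o of complex V -0.51 and -0.45, with adjusted p from 0.149 to 0.187.

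High against low Lrig1 was compared within each tissue. In normal epithelium the nuclear median was -0.23 on the log2 scale, given as Lrig1-high over Lrig1-low, against +0.01 over all genes. Of 82 nuclear members 76 were negative, where 48.8% of all genes were negative and 51.2% positive, and none was without overlap, against 1.63% of all genes above and 1.21% below. No gene passed the threshold (0% of all genes), and at an unadjusted p under 0.05 there were 3 nuclear members higher and 1 lower, against 2.54% and 1.06% of all genes. The 3 were Ndufa13, Uqcrh and Atp5g3, the genes that stood out in S14, and the 1 was Uqcrfs1 at -0.37 ± 0.17 (SE; adjusted p = 1). DESeq2 called no nuclear member, whereas limma-voom with sample weights called 22 lower, against 15.1% of all genes. Stem cell markers were positive in 10 of 10 and enterocyte markers negative in 12 of 12 in the same comparison. Paneth markers were positive in 6 of 6, while 6 of 7 colonocyte and 7 of 7 goblet markers were negative. The part of these cells was not tested. Stem cell marker sums were 8037, 8337, 551.5 and 6126 CPM in normal Lrig1-high libraries, against 806, 624.6, 2809 and 586 CPM in normal Lrig1-low libraries, so S10 and S09 stood apart from their groups. Without S07 to S10 the nuclear median was -0.30 and 1 nuclear member was called lower, against 2.3% of all genes.

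In tumors the nuclear median was +0.19, Lrig1-high over Lrig1-low, against -0.06 over all genes, with 55 of 82 positive where 45.7% of all genes were positive and 54.3% negative. No gene passed the threshold (0% of all genes), though 10 nuclear members were higher at an unadjusted p under 0.05 and none lower, against 3.61% and 3.9% of all genes. Cycs had 60.4, 58.9 and 81.1 CPM in tumor Lrig1-high libraries, above all 3 tumor Lrig1-low libraries at 44.2, 44.4 and 28.8 CPM. Its log2 fold change was 0.77 ± 0.34 (SE; adjusted p = 0.655), and Atp5c1 and Ndufv2 were likewise above without overlap, against 2.22% of all genes. Ndufb4 was the 1 member below, against 5.24% of all genes. The nuclear median rested in part on single libraries, at +0.04 without S11 and +0.29 without S03, and it was +0.23 without S07 to S10.

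The difference of the tumor over normal change between fractions (Lrig1-high minus Lrig1-low) had a nuclear median of +0.39, with 68 of 82 positive, against -0.09 over all genes with 45.4% positive. No gene passed the threshold for this interaction (0% of all genes), and 10 nuclear members were positive and 1 negative at an unadjusted p under 0.05, against 2.93% and 4.26% of all genes. So the difference between the fractions was not shown for any single member. It was +0.72 ± 0.29 for Ndufs7 and +0.74 ± 0.28 for Atp5c1 on the log2 scale (SE; adjusted p = 0.685 for both). Sdhc, low in tumor libraries of both fractions, gave +0.25 ± 0.26 (SE; adjusted p = 0.797). The nuclear median of this contrast was +0.21 without S11, +0.38 without S12 and +0.54 without S07 to S10.

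The 13 chrM genes are transcribed as long precursors from both strands of the mitochondrial genome and cut apart into messenger RNAs, so their levels are linked at synthesis. In these files their levels fell into distinct classes. Per length, mt-Cytb (cytochrome b of complex III) averaged 4629 CPM per kb over the 14 libraries, mt-Nd1 4166, mt-Co1 3083, mt-Nd5 2935, mt-Nd4 1381 and mt-Nd2 1284 CPM per kb. The light-strand gene mt-Nd6 averaged 295 CPM per kb. The other 6, mt-Atp6 (80.02), mt-Co2 (21.7), mt-Co3 (14.2), mt-Nd4l (13.9), mt-Atp8 (6.23) and mt-Nd3 (3.81 CPM per kb), together took 0.325% to 0.522% of the chrM messenger counts of a library. For comparison, the highest nuclear member per length was Atp5mpl, an ATP synthase subunit, at 558.5 CPM per kb.

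Those low genes lie where the mouse nuclear genome holds a long copy of mitochondrial DNA on chromosome 1. In GENCODE M21 on mm10, mt-Co2, mt-Co3, mt-Atp6 and mt-Nd4l were identical to the annotated chromosome 1 pseudogenes Gm28661, Gm28437, Gm10925 and Gm10222 over 681, 783, 678 and 294 aligned bases. mt-Nd3 matched Gm28438 at 344 of 345 bases. The copy also covers 63.6% of mt-Nd4 without a mismatch (Gm28439) and 31.8% of mt-Co1 at 98.8% identity (Gm29216). Of all 36-base words of a gene, 98.1% to 100% also occurred in another gene for those 5 low genes, against 62.6% for mt-Nd4, 59.7% for mt-Co1, 13.97% for mt-Nd5, 11.1% for mt-Nd2 and 0% for mt-Nd1. The counting command names no option for reads with several matches, which are then not counted by default. mt-Atp8 is low as well with 4.73% of its words shared, but it lies between copied genes, and intergenic sequence was not searched. The part of these copies in the levels was not tested. Because a value of these 6 genes covers only what was counted, no level between chrM genes is read as an amount of RNA.

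The windows below show 60 bases of 3 chrM genes above their chromosome 1 copies, on the gene's strand 5′ to 3′, with differing bases in capitals: a perfect copy, a copy with a single mismatch and the edge of a partial copy.
mt-Co2, chrM:7013-7072, plus strand: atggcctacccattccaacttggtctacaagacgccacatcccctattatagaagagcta
Gm28661, chr1:24615506-24615565, minus strand: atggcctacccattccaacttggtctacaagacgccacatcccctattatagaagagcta
mt-Nd3, chrM:9459-9518, plus strand: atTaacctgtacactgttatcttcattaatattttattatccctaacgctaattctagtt
Gm28438, chr1:24613060-24613119, minus strand: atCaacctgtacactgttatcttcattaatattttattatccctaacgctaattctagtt
mt-Co1, chrM:6381-6440, plus strand: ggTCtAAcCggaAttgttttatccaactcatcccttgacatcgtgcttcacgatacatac
Gm29216, chr1:24616138-24616197, minus strand: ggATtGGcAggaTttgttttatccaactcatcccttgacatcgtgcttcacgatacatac

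**Figure D5:**
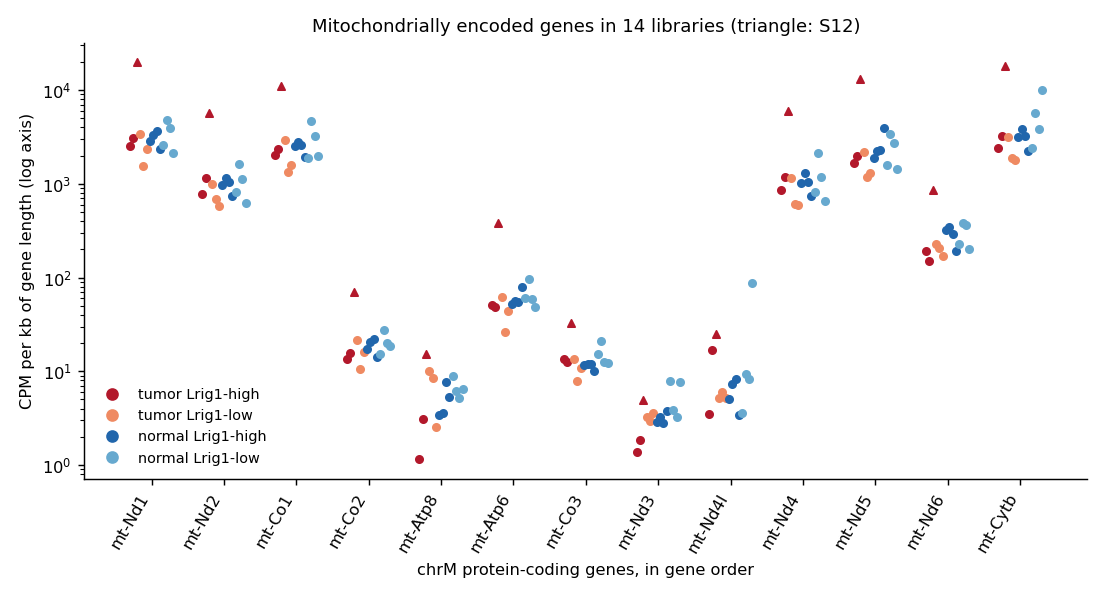
CPM per kb of the 13 chrM genes in gene order on a log axis, with a point for each library coloured by group and a triangle for S12. mt-Co2 to mt-Nd4l lie far below their neighbours in all libraries, and S12 is the highest library for 11 of the 13 genes, all but mt-Nd3 and mt-Nd4l.

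Between groups, the median log2 fold change of the chrM genes was +1.13 for tumor over normal in Lrig1-high cells and -0.56 in Lrig1-low cells, and none passed the threshold in either. The Lrig1-high value came from S12. mt-Nd1, a membrane core subunit of complex I, had 2421, 2962 and 18880 CPM in tumor Lrig1-high libraries, against 2763, 3158, 3533 and 2263 CPM in normal Lrig1-high libraries. Only S12 was outside the normal range, and the log2 fold change was 1.47 ± 0.61 (SE; adjusted p = 0.398), and -0.15 without S12. mt-Co1, the catalytic subunit of complex IV, had 3167, 3664 and 17194 CPM in tumor libraries, against 3959, 4365, 4017 and 2988 CPM in normal libraries of this fraction. That gave 1.06 ± 0.57 (SE; adjusted p = 0.490), and -0.19 without S12. The median over the 13 genes was likewise -0.19 without S12, and +1.45 without S07 to S10, a set that keeps S12.

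In Lrig1-low cells mt-Nd1 had 3264, 1499.9 and 2229 CPM in tumor libraries, against 2515, 4560, 3729 and 2037 CPM in normal libraries. mt-Co1 had 4541, 2086 and 2454 CPM in tumor libraries, against 2949, 7260.4, 4978 and 3055 CPM in normal libraries. Groups overlapped for both, with log2 fold changes of -0.46 ± 0.62 and -0.59 ± 0.58 (SE; adjusted p = 0.887 and 0.795). Of the 13 genes 12 were negative, none of them without overlap, and mt-Atp8 was at +0.08. The median of -0.56 was -0.84 without S03, -0.34 without S05 and -0.39 without S07 to S10, with standard errors of 0.39 to 1.03 for the chrM genes. In Lrig1-high cells mt-Co3 lay above without overlap, at +0.78 ± 0.39 (SE; adjusted p = 0.460).

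The chrM genes also varied with 1 library at a time. mt-Cytb stood at 11467 CPM in S13, a normal Lrig1-low library, against 2733 to 6503 CPM in the others of its group, and mt-Nd4l at 25.8 CPM in S13 against 1.06 to 2.77 CPM. mt-Nd5 was at 7127 CPM in S14, against 3473 to 4176 CPM in the other normal Lrig1-high libraries. In S12 the messenger to ribosomal RNA ratio of chrM was 0.156, against 0.0741 to 0.112 in the other libraries, so both kinds were high and the messengers more so. mt-Nd6, from the other strand, took 0.464% of chrM messenger counts in S12, within the range of 0.458% to 1.11% of the other libraries.

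For Lrig1-high over Lrig1-low, the chrM median was -0.22 in normal epithelium, where it was -0.22 without S07 to S10 too but turned to +0.08 without S05. It was +1.46 in tumors, +0.24 without S12 and +1.59 without S07 to S10. For the interaction it was +1.69, +0.36 without S12 and +1.81 without S07 to S10. Without S12 the nuclear medians of these 3 comparisons were -0.21, +0.18 and +0.38. None of the 13 genes passed the threshold in any comparison.

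Several subunits of complex IV exist as tissue isoforms, and the isoforms differed widely in level here. Cox4i1 averaged 169 CPM over the 14 libraries while Cox4i2, the isoform known from lung, was at 0 to 0.389 CPM. Cox6a1 averaged 83.3 CPM while the heart and muscle isoform Cox6a2 was at 0 in every library. Cox8a averaged 107 CPM while Cox8b and Cox8c were at 0, as was Cox7b2 beside Cox7b. A count of 0 in libraries of this depth is not absence. Ndufa4l2, a paralog of Ndufa4 known from hypoxic cells, was at 0.563 CPM or less.

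The testis isoform Cox6b2 was at 0 to 2.16 CPM, with a mean of 0.66 CPM, beside a mean of 56.2 CPM for Cox6b1.

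Cox7a1, the heart and muscle isoform of subunit 7a, was detected in all 14 libraries, at 4.52, 15.9 and 1.297 CPM in tumor Lrig1-high libraries, against 4.42, 2.18, 32.5 and 5.14 CPM in normal Lrig1-high libraries. In Lrig1-low cells it had 12.4, 3.51 and 5.41 CPM in tumor libraries, against 31.4, 13.9, 22.3 and 26.8 CPM in normal libraries. It was low in tumor libraries of this fraction without overlap, and its log2 fold change of -1.73 ± 0.94 (SE; adjusted p = 0.466) was the most negative of the nuclear members. Its counterpart Cox7a2 lay between 23.1 CPM in S11 and 61.7 CPM in S12. The muscle markers summed to 0.182 to 36.2 CPM in tumor Lrig1-high libraries, 0.977 to 7.11 CPM in tumor Lrig1-low libraries, 0.0662 to 0.568 CPM in normal Lrig1-high libraries and 0.408 to 1.16 CPM in normal Lrig1-low libraries, with Actg2 and Des at 0 in every library. Their part in the Cox7a1 level was not tested.

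The 3 genes for the same ATP synthase c subunit differed in level. Atp5g3 averaged 247 CPM per kb, with S14 far above the rest, and Atp5g2 only 13.97 CPM per kb, with 37.3% of its 36-base words shared with other genes. Atp5g1 had 25.6, 9.85 and 45.7 CPM in tumor Lrig1-high libraries and 22.9, 22.8 and 13.5 CPM in tumor Lrig1-low libraries, against 24.98, 19.9, 25.9 and 24.3 CPM in normal Lrig1-high libraries and 28.7, 21.2, 22.6 and 31.1 CPM in normal Lrig1-low libraries. S08 and S12 bracket the range of this gene.

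Genes that serve the respiratory chain without being subunits were followed in 6 lists, each compared with the -0.50 of the nuclear members in the tumor over normal comparison of Lrig1-low cells. Assembly factors had a median of -0.30 (40 of 47 negative), with Cox15, which makes the heme of complex IV, at -0.61 ± 0.20 (SE; adjusted p = 0.183). Enzymes of the TCA cycle and of pyruvate entry had a median of -0.50 (21 of 26 negative), with the malate dehydrogenase Mdh2 at -0.65 ± 0.36 (SE; adjusted p = 0.497). Carriers and superoxide defence had -0.33 (15 of 17 negative), with the adenine nucleotide translocase Slc25a5 at -0.56 ± 0.22 (SE; adjusted p = 0.270). Genes of mitochondrial DNA expression and copying had -0.24 (20 of 31 negative), with Lrpprc, a stabiliser of chrM messengers, at -0.63 ± 0.23 and Tfam, which packs mitochondrial DNA, at -0.33 ± 0.32 (SE; adjusted p = 0.213 and 0.793). Mitochondrial ribosomal proteins had -0.19 (58 of 78 negative) and regulators of biogenesis -0.10 (9 of 15 negative), among them Hcfc1 at +0.20 ± 0.21 (SE; adjusted p = 0.822).

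None of these lists had a member past the threshold in that comparison. Averaged over both fractions, 1 of the 214 tested genes of the 6 lists passed as higher (0.467%), against 1.82% of all genes. It was Pdp1, the phosphatase that activates pyruvate dehydrogenase, higher in tumor cells at 1.90 ± 0.44 on the log2 scale (SE; adjusted p = 0.0439), though its groups overlapped. Pdp1 had 11.02, 5.66 and 41.8 CPM in tumor Lrig1-high libraries, against 7.38, 7.55, 2.0 and 7.02 CPM in normal Lrig1-high libraries. In Lrig1-low cells it had 9.65, 10.6 and 13.4 CPM in tumor libraries, against 1.96, 2.6, 3.83 and 2.02 CPM in normal libraries, where the groups were apart. In Lrig1-high cells the medians of the 6 lists were -0.34 for assembly factors, -0.28 for mitochondrial DNA expression, -0.26 for mitochondrial ribosomal proteins, -0.19 for the TCA cycle, -0.11 for regulators of biogenesis and +0.08 for carriers, against -0.13 for the nuclear subunits.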

How the data were processed

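The deposited counts are raw reads per gene, which the authors obtained, per the file headers, by running featureCounts 1.5.3 against RefSeq exons (mm10) with reads taken from the reverse strand. Trimmomatic, HISAT2 and Subread are named in the submitters' processing notes, without versions. Per the labels' protocols, library preparation used a strand-specific low-input kit for total RNA, and sequencing was paired. The deposited gene lengths served for levels per kb. Gene identifiers were paired with symbols through RefSeq (25275) and GENCODE M21 (18), and 1886 had none. Members and lists were chosen with earlier results of these data known.

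Tests were run in edgeR 4.0.16 (R 4.3.3) with TMM scaling, filterByExpr (13883 genes), 1 coefficient per group over 14 libraries, quasi-likelihood F tests, and p-values adjusted after Benjamini and Hochberg, with calls at an adjusted p under 0.05. SE is the log2 fold change divided by the square root of F. The test was checked on simulated counts with the same spread for every gene and no outlying library, so the check does not cover a library like S12. Named are all chrM members, called members, the 2 nuclear members of each complex with the smallest p in each tumor over normal comparison, the 3 that go most against the nuclear median per comparison, isoform groups, the member with the highest level per length in each complex, and of each list its called members or the 2 most abundant ones. Sdhd, Ndufb4, Ndufv2, Atp5b and Atp5mpl are named where a count or level singles them out, after their values were seen. Alternatives were DESeq2 1.42.0, limma-voom (limma 3.58.1), other scalings and filters, S15 included, library sets and each library left out. The sum without 4 genes was chosen after seeing the data. Some results that the rule for named genes covers are not reported here. No column of another series was present.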

Additional observations from a re-analysis of the deposited data

Results flagged for a closer look

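Among 116 groups of 4 libraries that were looked at for a library far from the rest, 8 held one. The genes looked at were named in part for their folds in these same libraries, so this count is not set against a chance rate. Tumor groups, with 3 libraries each, were too small for this check, so S12 was not covered by it. In the normal Lrig1-high library S14, Ndufa13 stood at 1750.8 CPM against 49.7 to 67.7 CPM in the other libraries of its group, Uqcrh at 774.6 CPM against 62.4 to 107.95 CPM, Atp5g3 at 984.6 CPM against 80.7 to 129.7 CPM and mt-Atp6 at 53.5 CPM against 35.4 to 38.4 CPM. In S14, 60 of 8719 genes with a mean of at least 10 CPM were at least 3 times above every other library, against 99 in S12, 26 in S13, 24 in S11 and 15 in S03. Also in normal Lrig1-high cells, S10 had 32.5 CPM of Cox7a1 and 177 CPM of Uqcrc2, the highest of its group in both. In normal Lrig1-low cells, S01 had 217 CPM of Uqcrc2 and S13 had 25.8 CPM of mt-Nd4l. No member passed the test of a difference between the fractions.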

How the results depend on the processing

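The sign of the nuclear median held in every comparison under every setting run, including fits with each library left out. No paired analysis was possible because the labels give no replicate number that groups share; runs of 4 consecutive library numbers, which hold the groups in the same order, were taken as a block instead. Calls rested on the setting. Nuclear members called lower in tumor Lrig1-low cells numbered 7 in DESeq2 (0.783% of the genes run) and 12 in limma-voom (2.34%). With a library left out they numbered 0 to 2 (2 without S03), and the nuclear median ran from -0.702 to -0.367. The share of all genes called without S03 is not given here, so these 2 are not read as more than the background. Averaged over fractions, the 1 call (0.396% of all genes) became 8 in DESeq2 (1.62%) and 2 in limma-voom (0.382%), and 0 with no filter, with S15 included, with the runs as a block, without S07 to S10 and without S12; it ranged from 0 to 7 with a library left out (7 without S04, against 3.6% of all genes, and 4 without S03, against 0.802%). Lrig1-high over Lrig1-low in normal cells gave 22 lower in limma-voom (15.1% of all genes) and 1 without S07 to S10 (2.3%). Tumor over normal in Lrig1-high cells gave 0 to 3 higher and 0 to 2 lower with a library left out (1.82% and 3.77% of all genes at the top), and Lrig1-high over Lrig1-low in tumors 0 to 2 higher (0.284%), each time without S04 at the top.

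Of the chrM medians, 4 turned or shrank most without S12. For tumor over normal in Lrig1-high cells the median was -0.043 in limma-voom and -0.194 without S12 (-0.194 to 1.56 with a library left out), averaged over fractions -0.466 without S12 (-0.466 to 0.433). For Lrig1-high over Lrig1-low in tumors it was 0.098 in limma-voom and 0.242 without S12 (0.242 to 1.93), and for the interaction 0.078 and 0.355 (0.355 to 2.12). With a library left out, the chrM median of tumor over normal in Lrig1-low cells ran from -0.836 without S03 to -0.340 without S05, and that of Lrig1-high over Lrig1-low in normal cells from -0.281 without S13 to 0.078 without S05. Single genes that turned sign were Cycs averaged over fractions (0.100 with the runs as a block, 0.016 without S14 and 0.036 without S11, within -0.195 to 0.036 with a library left out), mt-Co1 (-0.043 in limma-voom, -0.194 without S12) and mt-Nd1 (-0.151 without S12) in Lrig1-high cells, and mt-Nd1 in Lrig1-low cells (0.002 in limma-voom). The cause was not tested. With 3 or 4 libraries a group, single members had standard errors that left most shifts below the threshold, and 7 nuclear members had too few counts to be tested.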
